A study of Mus musculus with 18 samples.

Results

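The hearts of mice given isoproterenol together with 100 nm polystyrene particles were compared with the hearts of mice given isoproterenol alone. All libraries carrying either treatment label were used, 6 of isoproterenol alone (ISO) and 6 of isoproterenol with the particles (ISO+100 nm PS), 12 of the 18 libraries of the study. The third group, ISO+1 µm PS, also has 6 libraries and entered the model for its estimate of the spread. All mice were male C57BL/6 mice of wild-type genotype, and the labels give no age. Every mouse received ISO by injection under the skin once a day at 2.5 mg/kg/day for 21 days. Mice of the ISO group were given water by gavage over the same time, and mice of the PS groups were given particles by gavage at 50 mg/kg/day. Hearts were taken at the end of the treatment, and the labels do not say which part of the heart was used or how it was dissected. No mouse went without ISO and none received particles alone, so the comparison shows only what differed on top of ISO. The replicate numbers name libraries, and nothing in the labels says which litter or cage a mouse came from.

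Isoproterenol is a synthetic agonist of beta-adrenergic receptors. In the heart these receptors raise cyclic AMP and the calcium released at each beat, and weeks of stimulation lead to hypertrophy, loss of myocytes and replacement by collagen-rich scar made by cardiac fibroblasts. Polystyrene beads are a common model of plastic particles taken up with food. Collagen is secreted as a precursor, trimmed by proteinases, assembled into fibrils and then crosslinked by lysyl oxidases, while microfibrils of fibrillin and elastin hold latent TGF-beta, the main profibrotic cytokine. The adult myocyte draws most of its ATP from mitochondrial oxidation of fatty acids.

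Batch 1, from a first sequencing provider, held 3 ISO and 5 ISO+100 nm PS libraries, and batch 2, from a second provider, held 3 ISO and 1 ISO+100 nm PS library, replicate 6. Batch and library cannot be told apart for that replicate. Total counts per library lay between 14032257 and 19174466 in the ISO group and between 18497937 and 20459086 in the ISO+100 nm PS group. ISO replicate 2 had counts above 0 for 13152 of the joined genes, the lowest of all 12 libraries; the next lowest ISO library had 16562, and those with 100 nm PS had 17305 to 18755. In ISO replicate 1, 42.4% of the counts came from mitochondrially encoded protein genes, while the rest of the group had 14.9% to 24.1%. Levels below are counts scaled to a common library size (CPM, with TMM factors), given as lowest, median and highest over 6 libraries. Differences are log2 fold changes of ISO+100 nm PS against ISO with their standard error (SE) from edgeR's quasi-likelihood test, with batch as a term and Benjamini-Hochberg adjustment over all 14623 genes tested. A gene is said to rise or fall where its adjusted p was under 0.05. Of ventricular myocyte markers, the myosin Myh6 lay between 6067 and 35167 CPM in all 12 libraries, and the thymus markers Foxn1 and Dntt were at 0 in all 12. The thymus markers Ptcra and Rag1 were at 0 in 5 ISO libraries and in 6 with 100 nm PS. The lung markers Sftpc and Scgb1a1 reached 1.01 and 1.63 CPM in ISO, and 0.82 and 2.13 CPM with 100 nm PS. In bulk tissue, fewer cells of a type and less RNA per cell cannot be told apart.

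With 100 nm PS, 1399 of 14623 genes changed (9.57%), 567 of them higher (3.88%) and 832 lower (5.69%). The median size was 0.83 among the higher genes and -0.84 among the lower ones. In all 6 libraries, 561 of the higher and 797 of the lower genes lay on the same side of the ISO mean of their own batch. The genes were called from these same values, so much of this agreement follows from the call. The change went along with base composition. The median GC content of the transcript was 56.8% for the higher genes and 43.3% for the lower genes, against 49.8% for all genes tested. With the genes cut into 10 equal bins by GC content, 0.137% were higher and 17.9% lower in the lowest bin (31.0% to 41.4% GC), and in the highest bin (57.9% to 74.4%) these shares were 14.6% and 0.411%. The Spearman correlation across genes of a library's deviation from its batch mean with GC content, which treats genes that are not independent, ran from -0.61 to 0.01 in ISO and from 0.12 to 0.37 in ISO+100 nm PS libraries. After each library was corrected for GC content within its batch, the count of genes that passed in edgeR was 0, and 2948 had an unadjusted p under 0.05 (4175 before). That correction removes any trend with GC content, also one that came with the treatment. Of the genes called before, 566 of the 567 higher and 831 of the 832 lower ones kept their sign. They had been called from the same counts, so this is no separate support. The part of base composition in each result below was not tested beyond this correction, and corrected medians stand beside many of the gene lists.

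**Figure D1:**
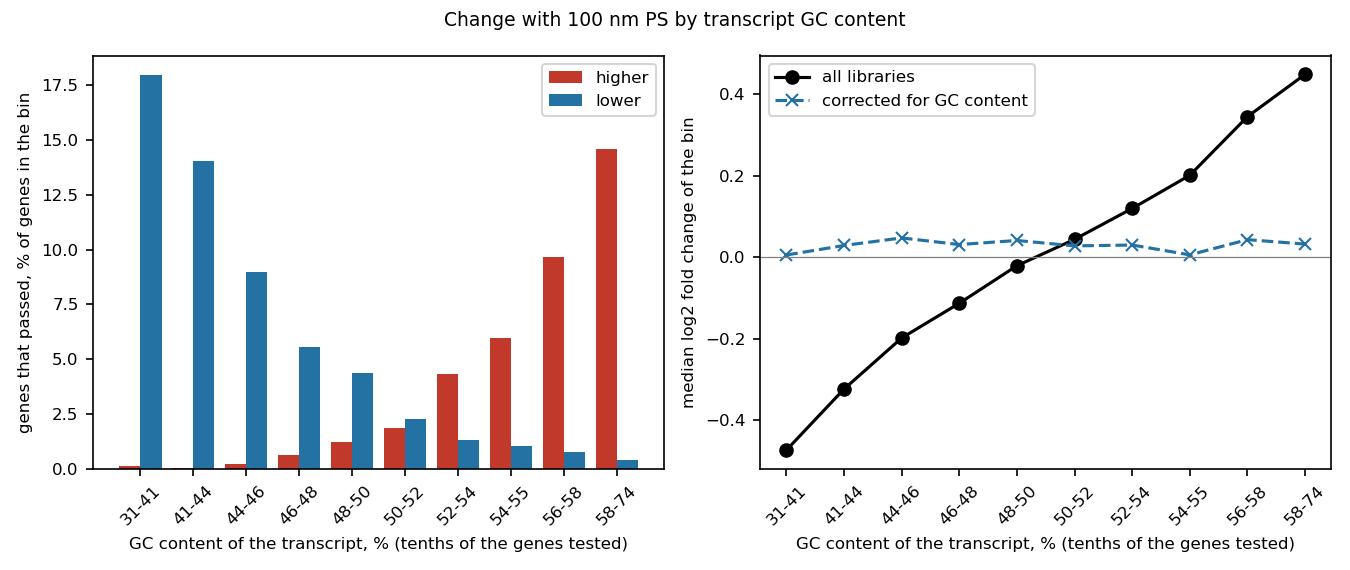
Left, the share of genes that passed as higher or lower with 100 nm PS, in percent, in 10 equal bins of the tested genes ordered by transcript GC content. Right, the median log2 fold change in each bin, uncorrected and corrected for GC content. The uncorrected median runs from -0.47 in the lowest bin to 0.45 in the highest, and the corrected one lies between 0.01 and 0.05 over the bins. The correction removes the GC trend of each library, so the corrected line is flat by construction.

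A stricter set was formed of genes that passed with all libraries and with any 1 of the 18 left out, and that had the same direction in each batch alone. It holds 161 genes (1.10% of those tested), 51 higher (0.349%) and 110 lower (0.752%). They are called stable below on these checks alone. In 6 of the 18 fits the library left out was of 1 µm PS, so both compared groups stayed whole. None of the 161 passed with the batch term left out. All 161 kept their sign after the GC correction, 153 of them at an unadjusted p under 0.05, and none passed after adjustment. The set was picked from these same counts, so the kept signs are no separate support. The number of genes that passed was 170 without ISO+100 nm PS replicate 6 and 2283 without ISO replicate 3, the lowest and highest with 1 library left out. CPM ranges of both groups did not overlap for 347 genes (2.37% of those tested), 238 higher (1.63%) and 109 lower (0.745%), and for 55 of the 161. Ranges here and below are not adjusted for batch, and the groups are spread unequally over the batches. ISO+100 nm PS replicate 6 lay above the ISO range for 530 of the genes called higher, against 307 to 436 for the rest of its group. It lay below that range for 635 of the genes called lower, against 247 to 344.

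Promoters of 6 genes of this set are shown because they differ in the short motifs near their start. They were picked after their values and motifs were seen. Each run is the 150 bases before the transcription start, read 5′ to 3′ along the gene's strand, from RefSeq on build GRCm38.p6, which is not the build named for the counts. Capitals mark the motifs found by a search of the 250 bases before the start on both strands for 4 motifs, which do not overlap here. These are TATAAA of the core promoter, TGANTCA, bound by AP-1, CCGGAAGT, bound by ETS factors, and the motif of nuclear respiratory factor 1 (NRF1), which is GCGCA followed, after any 1 base, by GCGC. Adamtsl2 and Ecm1 rose and hold a TATA box.
Adamtsl2 (chr2:27079229-27079378, + strand): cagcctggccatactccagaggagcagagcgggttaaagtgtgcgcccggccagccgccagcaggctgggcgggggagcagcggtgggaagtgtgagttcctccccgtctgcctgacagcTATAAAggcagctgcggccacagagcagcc
Ecm1 (chr3:95739570-95739719, - strand): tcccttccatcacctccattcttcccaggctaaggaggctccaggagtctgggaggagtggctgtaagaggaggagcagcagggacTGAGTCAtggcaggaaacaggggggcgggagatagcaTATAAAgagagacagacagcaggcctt
Sucla2, Ndufaf4, Nampt and Mrps22 fell, and hold the NRF1 motif (in Sucla2 on the opposite strand) or, in Mrps22, the ETS motif.
Sucla2 (chr14:73552636-73552785, + strand): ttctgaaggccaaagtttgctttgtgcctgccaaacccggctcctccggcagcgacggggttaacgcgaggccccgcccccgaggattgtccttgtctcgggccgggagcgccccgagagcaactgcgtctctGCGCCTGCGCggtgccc
Ndufaf4 (chr4:24897933-24898082, + strand): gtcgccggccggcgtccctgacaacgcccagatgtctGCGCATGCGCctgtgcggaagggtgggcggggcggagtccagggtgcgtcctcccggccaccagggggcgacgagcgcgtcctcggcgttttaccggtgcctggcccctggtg
Nampt (chr12:32820185-32820334, + strand): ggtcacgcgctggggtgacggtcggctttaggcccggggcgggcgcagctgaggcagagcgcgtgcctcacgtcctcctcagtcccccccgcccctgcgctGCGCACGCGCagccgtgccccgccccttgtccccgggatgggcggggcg
Mrps22 (chr9:98601680-98601829, - strand): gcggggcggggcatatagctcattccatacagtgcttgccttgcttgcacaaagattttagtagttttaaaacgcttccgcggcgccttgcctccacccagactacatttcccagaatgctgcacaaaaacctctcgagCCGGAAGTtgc

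RefSeq promoters matched 11238 of the 14623 genes tested by gene number, and the first listed start of each gene was used. The NRF1 motif lay within 250 bases upstream in 71 of 617 genes that fell (11.5%), in 27 of 449 genes that rose (6.01%) and in 7.86% of all matched genes. For the ETS motif these shares were 6.81%, 4.90% and 5.56%, for the TATA box 7.46%, 6.01% and 6.75%, and for AP-1 4.86%, 4.90% and 4.40%. The median GC content of the 250 bases was 59.2% for genes that fell, 62.4% for genes that rose and 59.6% for all matched genes. Of the genes printed, Ndufaf4, an assembly factor of respiratory complex I, was at 72.4 ± 39.3 CPM in ISO and 38.6 ± 7.32 CPM with 100 nm PS (mean ± SD, n = 6), a change of -1.07, SE 0.19, adjusted p = 0.0093. Nampt, which makes the NAD precursor nicotinamide mononucleotide, went from 156 ± 65.9 to 76.3 ± 14.4 CPM (-1.22, SE 0.20, adjusted p = 0.0093). Both were lower in all 6 libraries than the ISO mean of their batch, and their CPM ranges overlapped those of ISO.

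The 15 largest stable rises are given here or with their families. Sfrp2, a secreted antagonist of Wnt ligands, lay at 1.54 to 5.79 CPM (median 3.45) in ISO and at 5.66 to 52.2 CPM (median 25.9) with 100 nm PS, a change of 2.53, SE 0.54, adjusted p = 0.0142. Only replicate 5, at 5.66 CPM, fell within the ISO range. Tgfb3, a TGF-beta ligand, lay at 6.02 to 26.9 CPM (median 16.2) in ISO and 21.0 to 45.4 CPM (median 38.5) with 100 nm PS (1.34, SE 0.26, adjusted p = 0.0112). Adamtsl2, a microfibril-bound regulator of TGF-beta, lay at 11.0 to 37.8 CPM (median 18.8) in ISO and 35.4 to 66.1 CPM (median 54.7) with 100 nm PS (1.48, SE 0.23, adjusted p = 0.0093). For both, replicate 5 again was the only library inside the ISO range. Ecm1, a glycoprotein of the matrix, was at 32.4 to 83.1 CPM (median 47.1) in ISO and 65.7 to 187 CPM (median 110) with 100 nm PS (1.28, SE 0.27, adjusted p = 0.0136). Some large rises were of genes without a matrix role: Coro2b, an actin-binding coronin (1.23, SE 0.21), Pdia5, a disulfide isomerase of the endoplasmic reticulum (1.21, SE 0.25), and Impdh1, an enzyme of guanine nucleotide synthesis (1.14, SE 0.23). Coro2b and Pdia5 did not overlap with ISO in any library, with Coro2b at 6.18 to 19.6 CPM (median 14.0) against 22.5 to 41.3 CPM (median 27.7). Nckap5l (1.19, SE 0.23) and Tmem200b (1.11, SE 0.26) completed the set with Col16a1, Ltbp3, Adamts2, Emilin1, Loxl1 and Pcolce, which are described with their families.

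The 15 largest stable falls were of mixed kinds, and several depended in size on ISO replicate 2. Gzma, a granzyme of cytotoxic lymphocytes, was at 0.438 to 6.87 CPM (median 0.872) in ISO and 0.0935 to 0.438 CPM (median 0.256) with 100 nm PS (-3.00, SE 0.67, adjusted p = 0.0169), and at -1.66 without ISO replicate 2. Iigp1, an interferon-induced GTPase, had 916 CPM in that library, and was at -2.60, SE 0.57, adjusted p = 0.0158, and at -0.86 without that library. Ndufb1, a complex I subunit, was at 40.2 to 484 CPM (median 218) in ISO and 29.7 to 94.5 CPM (median 37.1) with 100 nm PS (-2.08, SE 0.43, adjusted p = 0.0119; -1.08 without ISO replicate 2). Without ISO replicate 2, Pkia was at -1.48 and Hook1 at -1.29. Pkia, the inhibitor peptide of protein kinase A, lay at 91.9 to 340 CPM (median 147) in ISO and 58.6 to 127 CPM (median 78.7) with 100 nm PS (-1.31, SE 0.26, adjusted p = 0.0112), and 1 library, replicate 4 at 127 CPM, lay inside the ISO range. Hook1, a linker of microtubule cargo, lay at 4.71 to 17.7 CPM (median 11.8) in ISO and 2.55 to 8.18 CPM (median 5.50) with 100 nm PS (-1.34, SE 0.22, adjusted p = 0.0093), and of the 100 nm libraries only replicate 6 lay outside the ISO range. The prolactin receptor Prlr (-1.31, SE 0.26), the endoplasmic reticulum protein Bcap29 (-1.30, SE 0.22), the nucleotide hydrolase Hint3 (-1.39, SE 0.28), Spryd7 (-1.45, SE 0.28) and the neuronal adhesion protein Cntn5 (-1.66, SE 0.36) fell as well. Levels of the ribosomal protein copies Rpl37rt, Rps27rt and Rpl9-ps6, of Rps15a and of the mitochondrial rRNA mt-Rnr2 are uncertain because near-identical sequences share reads; they were at -2.25, -2.17, -1.82, -1.499 and -1.72. Without ISO replicate 2, Rpl37rt was at -0.78, Rps27rt at -1.48, Rpl9-ps6 at -0.85 and Rps15a at -0.99.

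**Figure D2:**
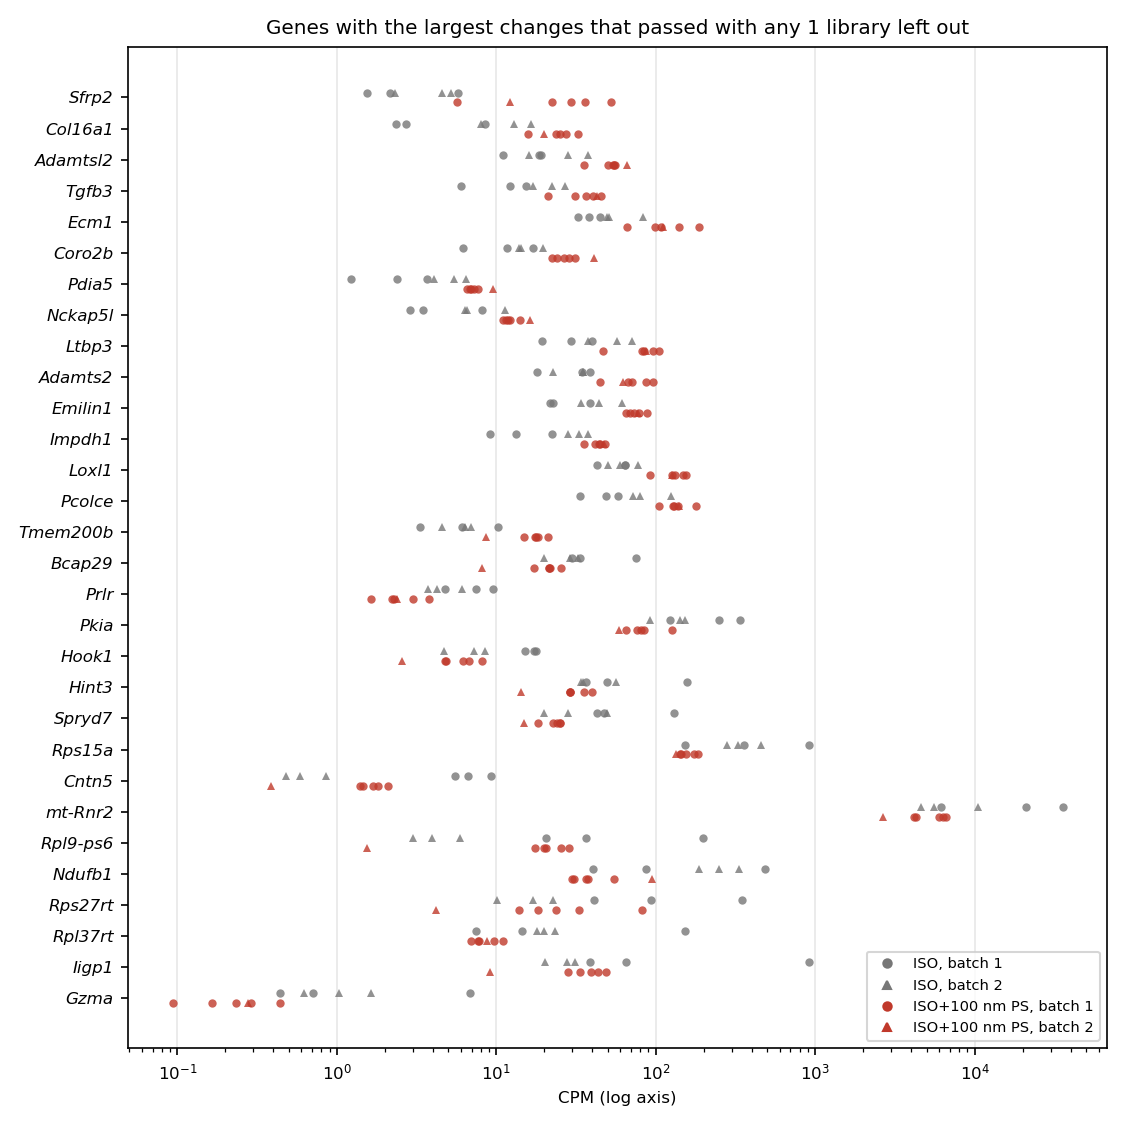
CPM on a log axis in each ISO library (grey) and each ISO+100 nm PS library (red) for the 15 largest rises and 15 largest falls among genes that passed with any 1 library left out; circles are batch 1 and triangles batch 2. Sfrp2 reaches 52.2 CPM with 100 nm PS against at most 5.79 CPM in ISO, and ISO replicate 2 holds the highest value of several falling genes, such as 916 CPM of Iigp1.

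The named genes in the gene families below are the members with the smallest p of each list, up to 2 per list, and 8 genes named whether or not they passed. Of 111 named genes that passed, 46 passed with any 1 of the 18 libraries left out. A further 31 failed only without ISO+100 nm PS replicate 6, where their adjusted p lay between 0.0501 and 0.0692 and the fold change on the log2 scale was 0.874 to 1.09 times that with all libraries. Without that same library the 46 passed narrowly, at an adjusted p from 0.041 (Mrpl1) to 0.0499 (Adamts2). Both kinds thus lay near the threshold there. Unless a sentence says otherwise, a named gene belongs to one of these 2 kinds. None of the 111 passed without the batch term or after the GC correction. With only the 2 compared groups in the model, 46 of the 111, not the same set as above by definition, no longer passed. Counts of list members that passed are to be read against 3.88% higher and 5.69% lower over all genes tested.

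**Figure D3:**
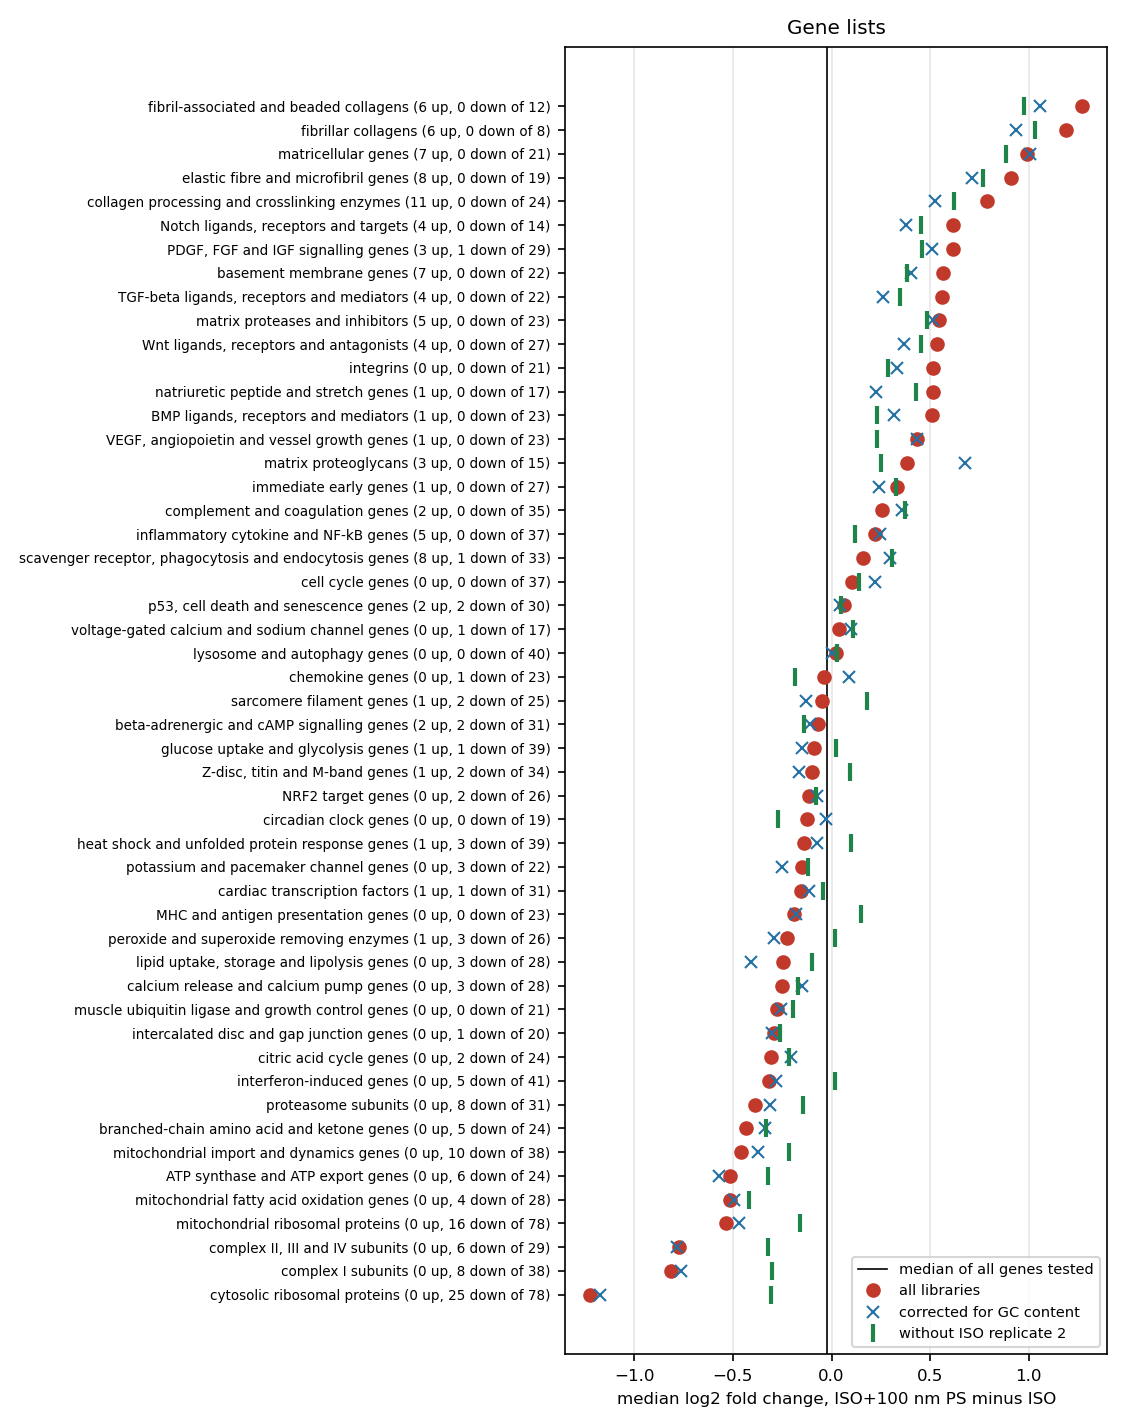
Median log2 fold change (ISO+100 nm PS minus ISO) of the members tested in each gene list other than the cell marker lists, with all libraries (red circles), after the correction for GC content (blue crosses) and without ISO replicate 2 (green bars); the black line is the median of all genes tested, -0.02. Numbers give how many members passed in each direction, and in the lists other than cell markers the medians run from -1.23 for cytosolic ribosomal proteins to 1.27 for fibril-associated and beaded collagens. Cell marker lists are not drawn, and their medians run from -1.42 for skeletal muscle to 2.06 for valve, tendon and cartilage.

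Genes of the extracellular matrix rose across the stages of collagen assembly, and no member of the 8 matrix lists fell. Among fibrillar collagens, 6 of 8 rose (list median 1.19, against -0.02 over all genes tested), and among the fibril-associated and beaded collagens 6 of 12 (median 1.27). Col5a1, which sets the diameter of collagen fibrils, was at 17.6 to 72.0 CPM (median 57.9) in ISO and 78.2 to 165 CPM (median 124) with 100 nm PS, a change of 1.36, SE 0.32, adjusted p = 0.0181. Its groups did not overlap. Col1a2, a chain of type I collagen, was at 85.5 to 234 CPM (median 180) and 210 to 534 CPM (median 377) (1.21, SE 0.29, adjusted p = 0.0205), and only replicate 5, at 210 CPM, lay inside the ISO range. Col6a2 of beaded filaments was at 25.4 to 162 CPM (median 97.7) in ISO and 141 to 281 CPM (median 214) with 100 nm PS (1.32, SE 0.30, adjusted p = 0.0174). Col16a1, a collagen that binds to other fibrils, was at 2.37 to 16.4 CPM (median 8.26) and 15.9 to 32.4 CPM (median 24.3) (1.72, SE 0.40, adjusted p = 0.0183). Basement membrane genes had 7 of 22 higher (median 0.56). There Col18a1, whose fragment endostatin acts on vessels, was at 11.7 to 45.4 CPM (median 18.5) in ISO and 29.1 to 71.9 CPM (median 49.7) with 100 nm PS (1.38, SE 0.29, adjusted p = 0.0133). Col4a1, a main chain of basement membranes, was at 277 to 733 CPM (median 499) and 675 to 1336 CPM (median 757) (0.97, SE 0.22, adjusted p = 0.0166), and 3 libraries with 100 nm PS lay inside the ISO range for each of these genes.

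Enzymes that trim, fold and crosslink collagen made up the matrix list with the most rises, 11 of 24 (median 0.79). Loxl1, a lysyl oxidase, was at 43.1 to 77.5 CPM (median 61.7) in ISO and 92.6 to 155 CPM (median 130) with 100 nm PS, so that every library of the latter lay above every ISO library (1.13, SE 0.23, adjusted p = 0.0117). Adamts2, which removes the amino-terminal propeptide, also did not overlap, at 17.9 to 38.7 CPM (median 34.6) against 44.8 to 96.1 CPM (median 68.9) (1.16, SE 0.24, adjusted p = 0.0119). Pcolce, an enhancer of the carboxyl-terminal proteinase, was at 33.5 to 125 CPM (median 65.2) and 105 to 178 CPM (median 135) (1.12, SE 0.25, adjusted p = 0.0165). The proteinase itself, Bmp1, and the lysyl hydroxylases Plod1 and Plod3, the prolyl hydroxylases P3h3 and P4ha3, the collagen chaperone Serpinh1, Loxl3 and the transglutaminase Tgm2 were the other members that rose. Per library, the mean log2 CPM of this list stood 0.68 to 1.31 above the ISO mean of the same batch with 100 nm PS, against -0.65 to 0.34 in ISO.

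Elastic fibre and microfibril genes had 8 of 19 higher (median 0.91): Eln, Fbln1, Fbln2, Emilin1, Mfap4, Ltbp2, Ltbp3 and Ltbp4. Emilin1, a glycoprotein at the elastin surface, was at 21.7 to 61.1 CPM (median 36.3) in ISO and 64.8 to 87.9 CPM (median 75.3) with 100 nm PS, with no overlap (1.15, SE 0.22, adjusted p = 0.0112). Fbln2 was at 74.6 to 161 CPM (median 132) and 204 to 269 CPM (median 218), also without overlap (0.91, SE 0.17, adjusted p = 0.0112). Ltbp3, which keeps TGF-beta latent in the matrix, was at 19.5 to 71.4 CPM (median 38.7) and 47.0 to 104 CPM (median 86.2) (1.18, SE 0.25, adjusted p = 0.0147), with replicate 5 alone inside the ISO range. Matricellular genes, whose products signal to cells from the matrix, had 7 of 21 higher (median 0.99). Tnxb, a tenascin that spaces collagen fibrils, was at 65.5 to 143 CPM (median 112) and 156 to 213 CPM (median 191) (0.92, SE 0.19, adjusted p = 0.0117), without overlap. Comp, a pentameric glycoprotein of tendon and cartilage, was at 1.78 to 6.74 CPM (median 3.97) in ISO and 4.84 to 95.8 CPM (median 41.7) with 100 nm PS (3.06, SE 0.72, adjusted p = 0.0196); replicate 5, at 4.84 CPM, was the only library inside the ISO range. Matrix proteases and inhibitors had 5 of 23 higher (median 0.54), with Mmp14, the membrane collagenase that activates Mmp2, at 0.96, SE 0.22, adjusted p = 0.0171 and Mmp2 at 0.84, SE 0.21, adjusted p = 0.0232. Mmp2 did not pass without ISO+100 nm PS replicate 1 or 6 (highest adjusted p = 0.0874). Of 15 proteoglycan genes 3 rose (median 0.38), among them the lubricant Prg4, at 6.02 to 17.7 CPM (median 9.05) against 10.9 to 81.7 CPM (median 30.2) (1.95, SE 0.39, adjusted p = 0.0117), and the small proteoglycan Bgn (1.13, SE 0.32, adjusted p = 0.0368), which passed in 9 of 18 fits with 1 library left out (highest adjusted p = 0.116 without ISO+100 nm PS replicate 6). The median of that list was 0.25 without ISO replicate 2 and 0.67 after the GC correction.

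After the correction for GC content, the medians were 0.94 for fibrillar collagens, 1.05 for fibril-associated collagens, 0.53 for processing enzymes, 0.71 for elastic fibres, 1.01 for matricellular genes and 0.40 for basement membrane genes. Without any 1 library, the median stayed between 0.62 and 0.88 for processing enzymes and between 0.77 and 1.01 for elastic fibres. In batch 1 and batch 2 alone, it was 0.77 and 0.67 for processing enzymes and 0.98 and 0.67 for elastic fibres. All 12 of 12 valve, tendon and cartilage markers tested had a positive change (median 2.06), and 3 passed, Comp, Prg4 and Tnc, which are also members of the matrix lists above. Their summed level was 55.1 to 157 CPM in ISO and 106 to 403 CPM with 100 nm PS, and their mean log2 CPM relative to the ISO mean of the batch was -0.96 to 0.59 in ISO and 0.78 to 3.63 with 100 nm PS. The tendon factor Scx (1.07, SE 0.51, adjusted p = 0.172), the tendon proteoglycan Fmod (2.79, SE 0.99, adjusted p = 0.0783) and the cartilage proteoglycan Acan (2.74, SE 1.11, adjusted p = 0.115) did not pass. The cartilage collagen Col2a1 was at 0 in 4 ISO and 2 ISO+100 nm PS libraries, and the tendon gene Tnmd in all 6 ISO libraries and 2 with 100 nm PS. The part of such tissue in the matrix result was not tested.

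**Figure D4:**
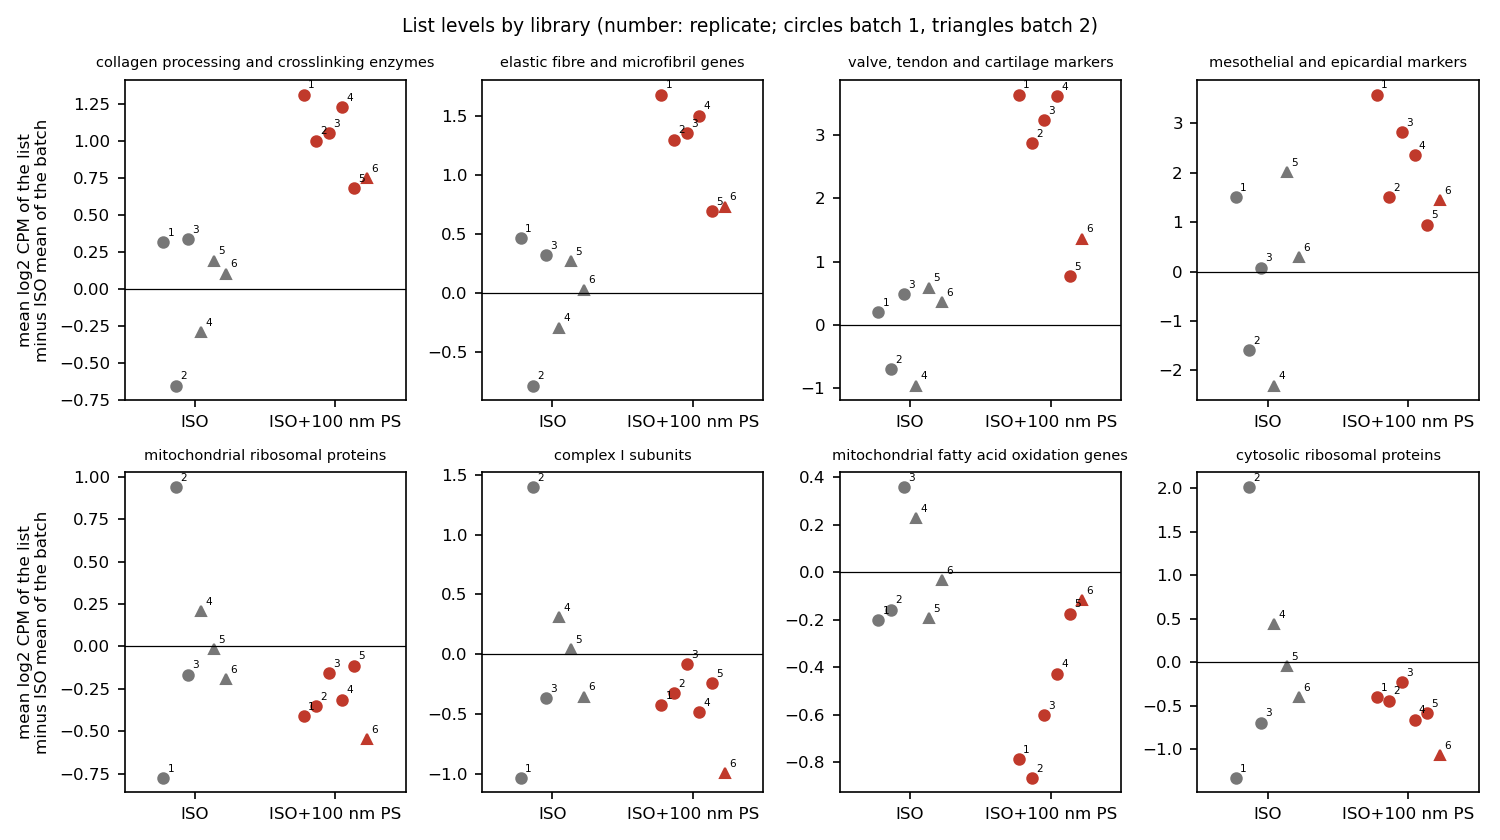
Mean log2 CPM of 8 gene lists in each library minus the mean of the ISO libraries of the same batch; numbers are replicates, circles batch 1 and triangles batch 2. For processing enzymes, elastic fibres and valve, tendon and cartilage markers no ISO+100 nm PS library overlaps with ISO, while for complex I and both kinds of ribosomal proteins ISO replicates 1 and 2 enclose all of them.

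Signalling genes linked to fibrosis and vessels rose in part, where 3.88% of all genes tested were higher. Of TGF-beta ligands, receptors and mediators 4 of 22 rose (median 0.56; 0.26 after the GC correction; 0.35 without ISO replicate 2). Besides Tgfb3 they were the ligand Tgfb1 and the endothelial receptors Eng and Acvrl1. Tgfb1 was at 26.1 to 49.0 CPM (median 37.5) in ISO and 46.9 to 75.1 CPM (median 57.3) with 100 nm PS (0.78, SE 0.14, adjusted p = 0.0093), with replicate 4 alone inside the ISO range. Of Notch genes 4 of 14 rose (median 0.62; 0.38 after the GC correction), the receptors Notch3 and Notch4 and the ligands Jag2 and Dll4. Notch4, an endothelial receptor, was at 35.1 to 56.0 CPM (median 47.5) in ISO and 63.5 to 116 CPM (median 83.1) with 100 nm PS, without overlap (0.89, SE 0.17, adjusted p = 0.0112). Notch3, the receptor of mural cells, was at 32.3 to 76.9 CPM (median 49.0) and 72.5 to 116 CPM (median 86.5) (0.85, SE 0.19, adjusted p = 0.0166). Of Wnt genes 4 of 27 rose (median 0.53; 0.37 after the GC correction), namely Sfrp2, Wnt10b, the receptor Fzd2 (1.11, SE 0.30, adjusted p = 0.0305, passing in 12 of 18 fits with 1 library left out (highest adjusted p = 0.0641 without ISO+100 nm PS replicate 1)) and Dkk3 (2.54, SE 0.77, adjusted p = 0.0457; 1.68 without ISO+100 nm PS replicate 1, adjusted p = 0.0858). Dkk3 passed in 6 of 18 fits with 1 library left out (highest adjusted p = 0.114 without ISO replicate 2). It is also in the list of atrial and conduction markers, and reached 139 CPM with 100 nm PS against at most 8.32 CPM in ISO.

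In the PDGF, FGF and IGF list 3 of 29 rose, Pdgfrb, Fgfr1 and Igfbp4, and 1 fell, Fgf13 (median 0.62). Over all genes 3.88% were higher and 5.69% lower. Fgfr1 was at 12.0 to 44.3 CPM (median 34.4) in ISO and 46.2 to 69.6 CPM (median 59.1) with 100 nm PS, without overlap (1.04, SE 0.22, adjusted p = 0.0135). Fgf13, an intracellular partner of sodium channels rather than a ligand, was at 34.1 to 62.6 CPM (median 41.3) and 12.3 to 31.6 CPM (median 19.9), with no overlap either (-0.97, SE 0.25, adjusted p = 0.0263), and passed in 13 of 18 fits with 1 library left out (highest adjusted p = 0.0634 without ISO+100 nm PS replicate 2). Of BMP genes 1 of 23 rose, the inhibitory mediator Smad6 (0.76, SE 0.19, adjusted p = 0.0214), which did not pass without ISO+100 nm PS replicate 1 or 6 (highest adjusted p = 0.0554). Of vessel growth genes 1 of 23 rose, the endothelial guidance receptor Robo4 (0.79, SE 0.20, adjusted p = 0.0225), which did not pass without replicate 2 or 6 of the same group (highest adjusted p = 0.0646). In the BMP and vessel growth lists the share that rose was near the 3.88% over all genes. The medians of these lists were 0.51 and 0.43, and both were 0.23 without ISO replicate 2. None of 21 integrin genes passed (median 0.52, 0.29 without ISO replicate 2), a share of 0 against 9.57% over all genes.

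Marker genes of fibroblasts, mural cells and endothelium rose in part. Of fibroblast markers 6 of 15 rose and 14 had a positive change (median 0.65; 0.50 after the GC correction), and 2 of these, Col1a1 and Col1a2, are also counted among the collagens and Mfap4 among the microfibril genes. Pi16, a marker of adventitial fibroblasts, was at 32.8 to 136 CPM (median 93.4) in ISO and 95.1 to 217 CPM (median 153) with 100 nm PS (1.10, SE 0.27, adjusted p = 0.0206). The general fibroblast markers Pdgfra, Tcf21 and Dcn did not pass. Tcf21 ranged from 4.91 to 12.7 CPM in ISO and from 11.1 to 20.3 CPM with 100 nm PS (0.65, SE 0.23, adjusted p = 0.0717), Pdgfra from 23.3 to 72.9 CPM and from 36.2 to 74.2 CPM (0.19, SE 0.23, adjusted p = 0.601), and Dcn from 462 to 1166 CPM and from 436 to 1073 CPM (-0.03, SE 0.23, adjusted p = 0.943). Of smooth muscle and pericyte markers 7 of 14 rose (median 0.73; 0.36 after the GC correction), including Pdgfrb and Notch3 counted above. The pericyte proteoglycan Cspg4 was at 19.99 to 48.1 CPM (median 34.9) in ISO and 40.7 to 74.7 CPM (median 47.7) with 100 nm PS (0.76, SE 0.16, adjusted p = 0.0142), and the contractile gene Smtn was at 0.70, SE 0.16, adjusted p = 0.0166. Of endothelial markers 3 of 16 rose (median 0.50; 0.50 after the GC correction; 0.32 without ISO replicate 2): Robo4, the junction protein Esam (0.72, SE 0.22, adjusted p = 0.0437) and Vwf, the clotting factor carrier (1.20, SE 0.37, adjusted p = 0.0459). Esam passed in 5 of 18 fits with 1 library left out (highest adjusted p = 0.0888 without ISO+100 nm PS replicate 2), and Vwf in 4 of 18 fits with 1 library left out (highest adjusted p = 0.0982 without ISO+100 nm PS replicate 6).

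Several other marker lists held no call. None of 12 mesothelial and epicardial markers passed, and all had a positive change (median 1.71). Their summed level was 13.6 to 173 CPM in ISO and 38.7 to 221 CPM with 100 nm PS, and the surface markers Msln and Upk3b were at 0 in 2 ISO libraries. The median was 0.31 in batch 2 alone and 2.20 in batch 1 alone. None of 10 Schwann cell and neuron markers passed, again all with a positive change (median 0.78, summed level 19.6 to 44.97 CPM in ISO and 26.9 to 78.8 CPM with 100 nm PS). Of atrial and conduction markers 2 of 13 rose and 1 fell (median 0.75). Replicate 1 of the 100 nm group held the highest summed level of this list, 3660 CPM, against at most 1050 CPM in ISO. None of 15 macrophage markers (median -0.01), 9 neutrophil and mast cell markers (median 0.43), 6 adipocyte markers (median 0.42) or 10 blood cell markers (median -0.35) passed, and the sign of each of these medians turned in some fits. It was 0.08 for macrophage and 0.15 for blood cell markers without ISO replicate 2. For neutrophil and mast cell markers it was 0.87 in batch 1 and -0.55 in batch 2. For adipocyte markers it was -0.30 in batch 2 and -0.08 without ISO+100 nm PS replicate 1. The skeletal muscle markers Tnni2 and Tnnt3 fell with all libraries (-2.39, SE 0.73 and -3.16, SE 0.97), but were at -0.26 and 0.18 without ISO replicate 2, which had 36.2 CPM of Tnnt3 against at most 0.816 CPM in the other ISO libraries. Of 9 lymphocyte markers 2 fell, Gzma and the B cell receptor gene Cd79b (-2.06, SE 0.63), and Cd79b was at -0.54 without ISO replicate 2 (adjusted p = 0.43). Of 12 ventricular cardiomyocyte markers 1 fell, Pln (median -0.41; -0.05 without ISO replicate 2), and their summed level was 43695 to 121002 CPM in ISO and 52684 to 105305 CPM with 100 nm PS. The parts of these cell types in the results were not tested.

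In the myocyte's calcium store, 3 of 28 genes fell and none rose (median -0.25; -0.15 after the GC correction). Over all genes 5.69% were lower and 3.88% higher. Trdn, which anchors the calcium buffer to the release channel, was at 137 to 350 CPM (median 216) in ISO and 72.9 to 129 CPM (median 115) with 100 nm PS, and every library of the latter lay below every ISO library (-1.23, SE 0.18, adjusted p = 0.00767; -0.81 after the GC correction). Pln, the inhibitor of the calcium pump, was at 3049 to 7478 CPM (median 4545) and 2042 to 4165 CPM (median 2672) (-0.91, SE 0.22, adjusted p = 0.0205). Strit1, a micropeptide that stimulates the pump, was at 1.58 to 35.0 CPM (median 2.44) and 0.292 to 1.07 CPM (median 0.913) (-3.43, SE 0.75, adjusted p = 0.0156); without ISO replicate 2, which had 35.0 CPM, it was at -1.54 (adjusted p = 0.0495). The release channel Ryr2 was at 523 to 1129 CPM (median 770) and 371 to 604 CPM (median 385) and did not pass (-0.77, SE 0.31, adjusted p = 0.116). Its change was -1.23 in batch 1 and -0.03 in batch 2. Among calcium and sodium channel genes 1 of 17 fell, the calcium channel subunit Cacna2d1, at 69.5 to 274 CPM (median 114) against 48.6 to 107 CPM (median 72.0) (-1.10, SE 0.22, adjusted p = 0.0117). Among potassium and pacemaker channels 3 of 22 fell: Kcnj3, an acetylcholine-gated channel subunit, at 14.9 to 64.7 CPM (median 50.4) against 11.6 to 41.1 CPM (median 28.5) (-1.01, SE 0.24, adjusted p = 0.0205), the silent subunit Kcnv2 (-1.72, SE 0.44, adjusted p = 0.0236) and Kcnd3. Kcnv2 did not pass without ISO+100 nm PS replicate 1, 2 or 6 (highest adjusted p = 0.0718).

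In the sarcomere, Z-disc, intercalated disc and beta-adrenergic lists, 3 of 25, 3 of 34, 1 of 20 and 4 of 31 genes passed, against 9.57% over all genes. Of sarcomere filament genes 1 of 25 rose, the atrial light chain Myl4 (4.84, SE 1.501), and 2 fell, Tnni2 and Tnnt3 of fast skeletal muscle. Myl4 reached 573 CPM in ISO+100 nm PS replicate 1 and was at 0.60 without that library. Of Z-disc, titin and M-band genes 1 of 34 rose and 2 fell. Nebl, the cardiac nebulin-like protein, was at 79.8 to 329 CPM (median 162) in ISO and 60.3 to 153 CPM (median 116) with 100 nm PS (-0.99, SE 0.20, adjusted p = 0.0118), and Pdlim3, an actinin-binding protein, at 9.38 to 24.9 CPM (median 15.7) and 12.1 to 50.8 CPM (median 33.4) (1.18, SE 0.29, adjusted p = 0.0219). Pdlim3 did not pass without ISO+100 nm PS replicate 1 or 6 (highest adjusted p = 0.0554). The desmosomal cadherin Dsc2 was the only one of 20 intercalated disc genes to fall (-0.84, SE 0.26, adjusted p = 0.0457), and it passed in 3 of 18 fits with 1 library left out (highest adjusted p = 0.118 without ISO replicate 1). Among 31 genes of beta-adrenergic and cyclic AMP signalling, the receptor gene Adrb1 was at 5.25 to 23.2 CPM (median 12.7) and 7.01 to 13.2 CPM (median 10.2) and did not pass (-0.34, SE 0.35, adjusted p = 0.545). The cyclic AMP sensors Rapgef3 and Rapgef4 changed in opposite directions, Rapgef3 by 0.61, SE 0.18, adjusted p = 0.0391 and Rapgef4 by -0.59, SE 0.17, adjusted p = 0.0359, the former passing in 8 of 18 fits with 1 library left out (highest adjusted p = 0.102 without ISO+100 nm PS replicate 6) and the latter in 8 of 18 fits with 1 library left out (highest adjusted p = 0.0815 without ISO+100 nm PS replicate 1). The receptor arrestin Arrb1 rose and the kinase subunit Prkar2a fell. Npr1, the receptor of natriuretic peptides, was the only one of 17 stretch genes to rise (0.83, SE 0.25, adjusted p = 0.0448), passing in 5 of 18 fits with 1 library left out (highest adjusted p = 0.0858 without ISO+100 nm PS replicate 1). Among cardiac transcription factors, Mef2a was at 75.9 to 232 CPM (median 134) in ISO and 62.1 to 119 CPM (median 107) with 100 nm PS and fell (-0.74, SE 0.15, adjusted p = 0.0125) and Nfatc4, an effector of calcineurin, rose (0.82, SE 0.25, adjusted p = 0.0437) and passed in 6 of 18 fits with 1 library left out (highest adjusted p = 0.118 without ISO+100 nm PS replicate 6). They were the only changes among 31 such factors tested.

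Each of 3 lists of mitochondrial fuel oxidation held genes that fell and none that rose, against 5.69% lower and 3.88% higher over all genes. The share in the citric acid cycle list was near that background. Of fatty acid oxidation genes 4 of 28 fell (median -0.52; -0.50 after the GC correction), but the median was -0.62 in batch 1 and -0.02 in batch 2. Decr1, which reduces unsaturated acyl-CoA, was at 263 to 680 CPM (median 381) in ISO and 160 to 292 CPM (median 212) with 100 nm PS (-0.94, SE 0.23, adjusted p = 0.022). The carnitine carrier Slc25a20 was at 115 to 171 CPM (median 153) and 52.4 to 130 CPM (median 77.4) (-0.70, SE 0.19, adjusted p = 0.0314). Decr1 passed in 15 of 18 fits with 1 library left out (highest adjusted p = 0.0593 without ISO+100 nm PS replicate 6), and Slc25a20 in 13 of 18 fits with 1 library left out (highest adjusted p = 0.0737 without ISO+100 nm PS replicate 1). Of citric acid cycle genes 2 of 24 fell (median -0.31; -0.21 after the GC correction; -0.46 in batch 1 and -0.02 in batch 2), and both belonged to the stable set. Dld, the dehydrogenase subunit shared by pyruvate and oxoglutarate complexes, was at 204 to 624 CPM (median 400) in ISO and 162 to 306 CPM (median 198) with 100 nm PS (-1.11, SE 0.23, adjusted p = 0.0117), and Sucla2, the ATP-forming succinyl-CoA ligase, at 299 to 724 CPM (median 543) and 237 to 404 CPM (median 295) (-0.92, SE 0.19, adjusted p = 0.0117). Branched-chain amino acid and ketone genes had 5 of 24 lower (median -0.44; -0.34 after the GC correction; -0.64 in batch 1 and -0.11 in batch 2). Ppm1k, the phosphatase that activates the branched-chain dehydrogenase, was at 35.7 to 80.4 CPM (median 58.3) in ISO and 21.9 to 34.2 CPM (median 30.5) with 100 nm PS, without overlap (-1.06, SE 0.20, adjusted p = 0.0112), and Dbt, the core of that dehydrogenase, at 22.7 to 53.7 CPM (median 42.7) and 12.7 to 28.4 CPM (median 21.9) (-1.04, SE 0.20, adjusted p = 0.0112).

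Among genes of fuel uptake and of glycolysis 3 of 28 and 2 of 39 passed, against 9.57% over all genes. Of lipid uptake, storage and lipolysis genes 3 of 28 fell, Cd36, Lpl and Vldlr (median -0.25; 0.21 in batch 2). Vldlr, a lipoprotein receptor, was at 68.1 to 227 CPM (median 165) in ISO and 40.5 to 82.1 CPM (median 63.1) with 100 nm PS (-1.22, SE 0.32, adjusted p = 0.0262), and passed in 14 of 18 fits with 1 library left out (highest adjusted p = 0.0669 without ISO+100 nm PS replicate 6). Lpl, the lipase on the vessel wall, was at -0.98, SE 0.26, adjusted p = 0.0294 with ISO replicate 1, where it reached 10549 CPM, and at -0.62 without it (adjusted p = 0.0877). Of 39 genes of glucose uptake and glycolysis 1 rose and 1 fell. Mpc2, a subunit of the mitochondrial pyruvate carrier, was at 267 to 1224 CPM (median 381) and 177 to 279 CPM (median 236) (-1.22, SE 0.30, adjusted p = 0.0207; -0.62 without ISO replicate 2), and the enolase Eno1 at 0.43, SE 0.13, adjusted p = 0.0409, passing in 4 of 18 fits with 1 library left out (highest adjusted p = 0.0893 without ISO+100 nm PS replicate 6). Eno1 was at 0.07 after the GC correction.

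Some subunits of the respiratory chain fell, none rose, and the sizes shrank without ISO replicate 2. Of complex I subunits 8 of 38 fell and all 38 had a negative change (median -0.82), of complex II, III and IV subunits 6 of 29 (median -0.78), and of ATP synthase and ATP export genes 6 of 24 (median -0.51). Without ISO replicate 2 these medians were -0.30, -0.32 and -0.32. Without ISO replicate 1 they were -1.06, -1.05 and -0.65, and without both replicates -0.64, -0.57 and -0.37. The GC correction left them at -0.77, -0.78 and -0.57. Ndufb5, a membrane subunit of complex I, was at 326 to 1207 CPM (median 490) in ISO and 262 to 324 CPM (median 298) with 100 nm PS, without overlap (-1.04, SE 0.24, adjusted p = 0.0183; -0.61 without ISO replicate 2). Cox7a2 of complex IV was at 302 to 1700 CPM (median 478) and 159 to 378 CPM (median 299) (-1.57, SE 0.35, adjusted p = 0.0166; -1.02 without ISO replicate 2), and Cox7a2l, which joins complexes into supercomplexes, at 230 to 681 CPM (median 285) and 187 to 221 CPM (median 209) (-0.84, SE 0.21, adjusted p = 0.0242; -0.48 without that library). Cox7a2l did not overlap and passed in 15 of 18 fits with 1 library left out (highest adjusted p = 0.0641 without ISO+100 nm PS replicate 6). Among ATP synthase and export genes the outer membrane channel Vdac3 (-0.53, SE 0.15, adjusted p = 0.0337) and the rotor subunit Atp5c1 (-0.63, SE 0.18, adjusted p = 0.0395) fell. Vdac3 passed in 11 of 18 fits with 1 library left out (highest adjusted p = 0.0809 without ISO+100 nm PS replicate 6), and Atp5c1 in 6 of 18 fits with 1 library left out (highest adjusted p = 0.086 without ISO+100 nm PS replicate 1). Vdac3 was at -0.12 after the GC correction.

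The mitochondrial ribosome and import machinery fell in part. Of mitochondrial ribosomal proteins 16 of 78 fell (median -0.53, or -0.47 after the GC correction). The median was -0.16 without ISO replicate 2, -0.73 without ISO replicate 1 and -0.38 without both. Mrpl1 of the large subunit had the smallest adjusted p of the named genes, at 20.4 to 71.6 CPM (median 36.6) in ISO and 11.3 to 29.1 CPM (median 22.98) with 100 nm PS (-1.24, SE 0.17, adjusted p = 0.00462; -1.24 in batch 1 and -1.27 in batch 2). Mrps22 of the small subunit was at 15.2 to 33.0 CPM (median 20.2) and 9.59 to 15.7 CPM (median 13.4) (-0.84, SE 0.14, adjusted p = 0.0093). In both, ranges overlapped, and all 6 libraries lay below the ISO mean of their batch. Of import and dynamics genes 10 of 38 fell (median -0.46, or -0.37 after the GC correction). Their median was -0.22 without ISO replicate 2 and -0.36 without ISO replicates 1 and 2. The outer membrane receptor Tomm20 was at 74.9 to 182 CPM (median 114) in ISO and 54.4 to 82.1 CPM (median 63.2) with 100 nm PS (-0.73, SE 0.16, adjusted p = 0.0156), and the inner membrane subunit Timm21 at 18.6 to 36.1 CPM (median 26.6) and 14.5 to 22.96 CPM (median 20.3) (-0.62, SE 0.13, adjusted p = 0.0117; -0.24 after the GC correction).

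Stress genes gave no common direction. Over all genes 3.88% were higher and 5.69% lower, and the NRF2, heat shock and p53 counts lay not far from those shares. Of 26 target genes of NRF2, the factor that answers oxidants, none rose and 2 fell (median -0.11). Nqo1, a quinone reductase, was at 36.4 to 86.6 CPM (median 43.1) in ISO and 16.6 to 36.6 CPM (median 20.6) with 100 nm PS (-1.10, SE 0.25, adjusted p = 0.0165; -1.48 in batch 1, -0.39 in batch 2), with replicate 6 alone inside the ISO range. Txn1, thioredoxin, was at -0.84, SE 0.26, adjusted p = 0.0475 (-0.40 without ISO replicate 2) and passed in 2 of 18 fits with 1 library left out (highest adjusted p = 0.201 without ISO replicate 2). Hmox1, heme oxygenase, was at 0 to 12.0 CPM (median 7.40) and 7.69 to 12.0 CPM (median 10.3) and did not pass (0.64, SE 0.51, adjusted p = 0.426). Of peroxide and superoxide removing enzymes 1 of 26 rose, the secreted dismutase Sod3, and 3 fell, Prdx1, Glrx and Glrx2. Prdx1 was at 231 to 417 CPM (median 291) in ISO and 161 to 213 CPM (median 192) with 100 nm PS, without overlap (-0.65, SE 0.15, adjusted p = 0.0181), and Glrx (-0.63, SE 0.17, adjusted p = 0.0294) passed in 12 of 18 fits with 1 library left out (highest adjusted p = 0.0699 without ISO+100 nm PS replicate 2). Of heat shock and unfolded protein response genes 1 of 39 rose and 3 fell. The mitochondrial chaperonin partner Hspe1 was at -1.19, SE 0.28, adjusted p = 0.0205 (-0.62 without ISO replicate 2), and Pdia4, a foldase of the endoplasmic reticulum, at 0.77, SE 0.20, adjusted p = 0.0241, not passing without ISO+100 nm PS replicate 1 or 6 (highest adjusted p = 0.105). Of 30 genes of p53, cell death and senescence 2 rose, Trp53 and Bak1, and 2 fell, Ccng1 and Tfrc. Trp53 was at 4.87 to 31.3 CPM (median 18.3) and 23.8 to 42.1 CPM (median 29.5) (1.04, SE 0.26, adjusted p = 0.0224), not passing without replicate 2 or 6 of the 100 nm group (highest adjusted p = 0.0657), and Ccng1, a cyclin induced by p53, at 290 to 1432 CPM (median 661) and 211 to 479 CPM (median 342) (-1.28, SE 0.23, adjusted p = 0.0104). Cdkn1a, the cell cycle inhibitor induced by p53, did not pass (0.07, SE 0.46, adjusted p = 0.938); the batches gave -0.65 and 1.55. None of 40 lysosome and autophagy genes passed (median 0.02), nor any of 37 cell cycle genes (median 0.10).

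Of genes for scavenger receptors, phagocytosis and endocytosis, the routes by which cells take up particles, 8 of 33 rose and 1 fell (median 0.16; 0.30 after the GC correction; -0.01 in batch 2 and 0.31 without ISO replicate 2). Over all genes 3.88% were higher and 5.69% lower. Mrc2, a collagen-binding endocytic receptor, was at 20.7 to 34.8 CPM (median 27.0) in ISO and 39.6 to 67.4 CPM (median 52.7) with 100 nm PS, without overlap (0.96, SE 0.19, adjusted p = 0.0112). Scarb1, the receptor for high-density lipoprotein, was at 24.9 to 64.6 CPM (median 44.2) and 59.3 to 96.3 CPM (median 72.3) (0.89, SE 0.18, adjusted p = 0.0117; 0.96 after the GC correction). Stab1, Axl with its ligand Gas6, Lrp1, Dnm2 and Ehd2 were the other rises, and Cd36 the fall. In the inflammatory cytokine and NF-kB list 5 of 37 rose and none fell (median 0.22; 0.12 without ISO replicate 2), and those that rose were TNF receptors and subunits of the NF-kB factor, not cytokines. Tnfrsf1a was at 54.4 to 78.7 CPM (median 62.6) in ISO and 82.2 to 114 CPM (median 90.7) with 100 nm PS (0.60, SE 0.12, adjusted p = 0.0118), and Rela at 33.2 to 50.1 CPM (median 42.2) and 50.3 to 64.3 CPM (median 54.8) (0.50, SE 0.12, adjusted p = 0.0192). Neither overlapped, and after the GC correction they were at 0.32 and 0.07. Tnf, the ligand, was at 0 to 0.612 CPM (median 0.153) and 0.166 to 0.563 CPM (median 0.262) and did not pass (0.36, SE 0.72, adjusted p = 0.769), and the inflammasome sensor Nlrp3 did not pass either (0.63, SE 0.58, adjusted p = 0.495). Il1b and Il6 were not among the genes tested.

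The chemokine, complement and immediate early counts below lay not far from the 3.88% higher and 5.69% lower over all genes. Of chemokine genes none of 23 rose and 1 fell, Ccl12, which had 31.6 CPM in ISO replicate 2 and was at -2.34 with and -0.42 without that library. The monocyte chemokine Ccl2 was at 1.10 to 2.80 CPM (median 2.05) and 0.797 to 2.30 CPM (median 1.70) and did not pass (-0.23, SE 0.36, adjusted p = 0.711). Of interferon-induced genes 5 of 41 fell (median -0.32; 0.02 without ISO replicate 2). Gbp6, a guanylate-binding protein, was at -1.98, SE 0.55, adjusted p = 0.033 and at -0.64 without ISO replicate 2 (adjusted p = 0.103). Of complement and coagulation genes 2 of 35 rose, Vwf and Serpinf1, an antiangiogenic serpin at 18.8 to 54.7 CPM (median 31.1) in ISO and 46.8 to 119 CPM (median 83.6) with 100 nm PS (1.36, SE 0.32, adjusted p = 0.0192). None of 23 genes of antigen presentation passed (median -0.19; 0.15 without ISO replicate 2). Among 27 immediate early genes Jun rose (0.61, SE 0.19, adjusted p = 0.0459), and passed in 5 of 18 fits with 1 library left out (highest adjusted p = 0.102 without ISO+100 nm PS replicate 1). None of 19 circadian clock genes passed (median -0.13), and their median was 0.64 in batch 1 and -0.71 in batch 2.

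Cytosolic ribosomal protein genes had the lowest median of the lists other than cell markers. Of 78 tested 25 fell and all had a negative change (median -1.23; -1.18 after the GC correction). The median was -0.31 without ISO replicate 2 and -1.46 without ISO replicate 1, and the summed level was 12499 to 106114 CPM in ISO and 16004 to 22391 CPM with 100 nm PS, so that the ISO libraries enclosed all others. Rps15a was at 154 to 920 CPM (median 343) in ISO and 134 to 185 CPM (median 149) with 100 nm PS (-1.499, SE 0.30, adjusted p = 0.0112), and Rpl17 at 70.0 to 554 CPM (median 336) and 40.4 to 199 CPM (median 61.0) (-1.47, SE 0.35, adjusted p = 0.0196; -0.80 without ISO replicate 2). Near-identical pseudogenes make both uncertain. Proteasome subunits, which form the protease for ubiquitinated proteins, had 8 of 31 lower (median -0.39, or -0.31 after the GC correction). Their median was -0.14 without ISO replicate 2 and -0.28 without ISO replicates 1 and 2. Psmc6, an ATPase of its base, was at 41.3 to 131 CPM (median 90.3) and 30.0 to 77.1 CPM (median 68.2) (-0.84, SE 0.16, adjusted p = 0.0112), and Psma3 of its core ring at 54.6 to 146 CPM (median 76.3) and 40.6 to 56.9 CPM (median 49.3) (-0.91, SE 0.19, adjusted p = 0.0135). None of 21 muscle ubiquitin ligase and growth control genes passed (median -0.28). Among them Fbxo32, a ligase of muscle atrophy, was at 55.8 to 120 CPM (median 81.6) in ISO and 45.7 to 71.6 CPM (median 58.2) with 100 nm PS (-0.43, SE 0.21, adjusted p = 0.186).

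Against the larger particle, no difference was called. Between ISO+1 µm PS and ISO+100 nm PS edgeR's test passed 0 of 14623 genes (0%), and 49 had an unadjusted p under 0.05. DESeq2 and limma voom also called 0. Over the 30 genes with the largest stable changes, the log2 difference of 1 µm minus 100 nm PS ran from -1.07 to 0.95, with SE from 0.20 to 0.68. Sfrp2 was at -1.07 (SE 0.46), Trdn at -0.01 (SE 0.17), Tgfb1 at -0.05 (SE 0.13) and Mrpl1 at 0.11 (SE 0.16). Comp was at -1.38 (SE 0.59). For the dense connective tissue markers the median against ISO was 2.06 at 100 nm and 1.45 at 1 µm, for processing enzymes 0.79 and 0.68, for fatty acid oxidation -0.52 and -0.25, and for complex I -0.82 and -0.82. Both columns of values share the ISO libraries. A difference that misses the threshold does not show that both sizes act alike.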

How the data were processed

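RNA of mouse hearts was measured in 18 paired-end poly(A) libraries, sequenced by 2 providers and extracted with TRIzol, per the labels' protocols. The batch is the provider named in the labels. The authors deposited raw counts per gene under Entrez numbers for batch 1 (46548 entries) and expected counts, estimated per gene under Ensembl IDs, for batch 2 (57010 entries). Among nonzero values of the batch 2 file, 19.6% are not whole, and they were rounded. Per the submitters' processing notes, the tools were featureCounts 1.5.0-p3, StringTie 1.3.3b, HISAT2 2.0.5, DESeq2 and fastp, and the builds mm39 and GRCm39. Those notes do not say which tool made which table, nor are strand and multiple mapping settings given, so near-identical genes, overlapping genes and antisense partners are uncertain.

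Tables were joined on 22146 genes by ID and 13414 by symbol, 35560 in all. The joined genes hold at least 98.9% of the counts of a batch 1 library. In batch 2 they hold 85.2% to 87.4% in ISO and 93.5% in ISO+100 nm PS replicate 6, so the counts left out differed between the groups there. For batch 1, 215 entries without a gene name, 0.160% to 0.388% of a library's counts, were left out. Of 23 library pairs compared, none looked like repeated deposits of 1 library (lowest chi-square per gene 14.2). Nothing in the labels says that replicates came from separate animals, so p-values measure the spread between these libraries.

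In R 4.3.3, edgeR 4.0.16 was run with TMM factors, filterByExpr at a minimum count of 10 and the robust quasi-likelihood fit of group and batch over all 18 libraries (14 residual degrees of freedom). It was also run on simulated counts with known changes. Those counts had the same spread for all genes, no trend with GC content and no outlying library, so that run does not test these features. The SE is the size of the log2 fold change divided by the square root of F. CPM use TMM library sizes, and log2 CPM a prior count of 2. Fits to 1 batch alone gave the batch values. Transcript GC content was read from GENCODE M21, longest transcript per gene (99.8% of genes tested). The correction fits a spline with 5 degrees of freedom to the difference between a library and its batch mean over all groups, and removes it.

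Named genes are the 15 largest rises and 15 largest falls among genes passing in every fit with 1 library left out and in the same direction in each batch, up to 2 genes with the smallest p in each of 65 gene lists with at least 5 members tested, both with a mean of at least 1 CPM, and always 8 tested genes (Tnf, Ccl2, Nlrp3, Hmox1, Cdkn1a, Adrb1, Ryr2 and Fbxo32; Il1b, Il6 and Sln are also on that list and were not tested). Genes named outside the rule are members listed to complete a count, and Nampt, Ndufaf4, Myl4, Myh6, Foxn1, Dntt, Ptcra, Rag1, Sftpc, Scgb1a1, Col2a1, Tnmd, Scx, Fmod, Acan, Msln, Upk3b, Pdgfra, Tcf21 and Dcn, chosen after their values were seen. The comparison, the lists and the rule were chosen with earlier results of these data known. Alternatives were RLE and upper-quartile factors, other filters, DESeq2 1.42.0, limma 3.58.1 voom, either batch by itself, a model lacking batch, a model of the 2 groups, a block by replicate number, the GC correction, an adjusted p under 0.1, and removal of each library and of ISO replicates 1 and 2 together.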

Additional observations from a re-analysis of the deposited data

Results flagged for a closer look

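A library stood apart for a gene where, on the log2 CPM scale, its gap to the nearest library of its group, divided by the group's range, was above Dixon's critical value for 6 libraries; over 238 combinations of a named gene and a group, this held for 30, and chance gives about 1 in 20.

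ISO replicate 2 stood apart from the other ISO libraries for 10 named genes. It was high for genes of interferon response and immunity, with 916 CPM of Iigp1 (20.2 to 65.0 in the others), 171 CPM of Gbp6, 31.6 CPM of Ccl12 and 13.9 CPM of Cd79b. It was high as well for Hint3 (157 CPM), Txn1 (196 CPM) and the skeletal troponin Tnnt3 (36.2 CPM). It was low for Npr1 (10.1 CPM) and Pdia4 (15.5 CPM), and Hmox1 was at 0 there, against 5.78 to 12.0 CPM in the others. Among other ISO libraries, replicate 4 was low for Mmp2 (48.9 CPM) and replicate 3 for Glrx (25.3 CPM).

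ISO+100 nm PS replicate 6, the only library of its group in batch 2, stood apart for 13 named genes. It was low for Trdn (72.9 CPM, against 109 to 129), Mef2a (62.1 CPM), Lpl (1690 CPM), Mmp14 (30.3 CPM), Psmc6 (30 CPM), Bcap29 (8.09 CPM), Hint3 (14.3 CPM), Iigp1 (9.14 CPM), Txn1 (31.2 CPM), Cntn5 (0.388 CPM) and Rpl9-ps6 (1.55 CPM). It was high for Rpl17 (199 CPM, against 40.4 to 67.8) and for Cdkn1a (94.1 CPM, against 27.0 to 39.6). Batch and library cannot be told apart for this replicate.

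ISO+100 nm PS replicate 5 was low for 4 genes of matrix or contractile function, Ltbp3 (47 CPM, against 82.4 to 104), Bgn (317 CPM), Mmp2 (82 CPM) and Pdlim3 (12.1 CPM), and replicate 4 was low for Esam (101 CPM).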

How the results depend on the processing

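Of 1399 genes that changed with 100 nm PS, 567 higher and 832 lower, the counts were 717, 304 and 413 without a filter, 2603, 1109 and 1494 with DESeq2, 364, 145 and 219 with only the groups compared, 7, 5 and 2 in batch 2 alone, 606, 206 and 400 without ISO replicates 1 and 2, and 2644, 1079 and 1565 at an adjusted p under 0.1. They were 0, 0 and 0 without the batch term (2759 at an unadjusted p under 0.05) and after the GC correction (2948). The cause was not tested. Other scalings, voom, the stricter filter and batch 1 alone gave 1134 to 1735 genes. Leaving out 1 library gave 170 to 2283 genes, 53 to 981 higher and 117 to 1339 lower, with 493, 512, 608, 873 and 883 genes without ISO+100 nm PS replicates 1 to 5, 859 without ISO replicate 4 and 912 without ISO+1 µm PS replicate 2. With the replicate number as a block the counts were 0, 0 and 0 (2822 at an unadjusted p under 0.05). Residuals of same-numbered ISO and ISO+100 nm PS libraries correlated at -0.34 to 0.04, and 0 of 6 matched best with their own number. This cannot exclude a pairing, because some same-numbered libraries lie in different batches and the residuals depend on the fit of group and batch. Between particle sizes 1 gene passed in batch 2 alone. The sign turned for some values. With 1 library left out, Tnnt3 ran from -3.67 to 0.18 (without ISO replicate 2), Tnf from -0.0051 (without ISO replicate 2) to 1.28, Cdkn1a from -0.11 to 0.74, negative without ISO replicate 4, 5 or 6 or ISO+100 nm PS replicate 6, and Adrb1 from -0.53 to 0.073 (without ISO replicate 3). Tnf was at -0.43 without ISO replicates 1 and 2, Cdkn1a at -0.65 in batch 1 and -0.21 after the GC correction, and Ccl2 at 0.071 with voom, 0.077 in batch 2 and 0.044 after the GC correction. In batch 2 alone the medians were -0.055 for BMP, -0.013 for scavenger, 0.12 for ubiquitin ligase, 0.13 for intercalated disc, 0.21 for lipid uptake and 0.047 for heat shock genes, and 0.025 for skeletal muscle markers. With voom, intercalated disc, lipid uptake, heat shock, skeletal and lymphocyte medians were 0.022, 0.096, 0.16, 0.077 and 0.074. With 1 library left out, the medians reached 0.017 for peroxide removal (lowest -0.40), 0.098 for heat shock (lowest -0.21), 0.066 for lymphocyte (lowest -0.43) and 0.19 for skeletal markers (lowest -1.69), each without ISO replicate 2. Without ISO replicates 1 and 2, heat shock was at 0.015 and lymphocyte markers at 0.027, and the latter were at 0.69 with the stricter filter and 0.29 with only the groups compared. Genes at low CPM, such as Gzma and Strit1, rest on few counts.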
